A study of Mus musculus with 6 samples.

Results

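The genes described here are 10 nuclear genes of mitochondrial biogenesis and dynamics, measured in mouse brown adipose tissue (BAT). They are Nrf1, Gabpa, Tfam, Polrmt, Tfb1m and Tfb2m, which control the mitochondrial genome and the nuclear genes of the respiratory chain, and Mfn1, Mfn2, Opa1 and Dnm1l, which fuse and divide mitochondria. They were chosen by name from the pathway, with earlier results of these data known. Every array probe whose RefSeq transcript belongs to one of them in the GRCm38.p6 gene table was taken, which gave 20 probes for 10 of the 23462 genes matched on the array. Of these, 19 probes were well above background on all 6 arrays, 12 probes of 8 genes could be tested, and 7 detected probes had too many spots marked as outliers by the scanner software.

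The question was how the messenger RNA levels of BAT differ when the microRNA miR-22 is missing. BAT was taken from 3 wild-type (WT) mice and from 3 mice in which miR-22 was deleted in the whole body (KO), all male and 8 weeks old. The KO line came from the Jackson Laboratory, and since the deletion was not limited to fat, an effect that began in another organ cannot be told apart from one that began in BAT. RNA of 1 mouse was labelled with Cy3 and hybridised to 1 Agilent mouse expression array, so that n = 3 per group throughout, and the 6 arrays lay on 1 slide read in 1 scan. With 3 arrays a group, precision is limited by that number.

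Brown fat burns fuel for heat and is packed with mitochondria. New mitochondria are made when coactivators of the PGC-1 family work with the DNA-binding factors NRF-1 and GABP on nuclear genes, among them Tfam and the other genes that copy and read the mitochondrial genome. The mitochondria then fuse, through the mitofusins on the outer membrane and Opa1 on the inner one, and divide, through the dynamin-related protein encoded by Dnm1l.

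A value below is the log2 of a spot's processed signal over the 75th percentile of its array, called the scaled log2 signal. A difference is KO minus WT on that scale, from limma fitted to all 31238 tested probes, and adjusted p-values are Benjamini-Hochberg values over all of them. A probe or gene is called lower or higher when its unadjusted limma p was under 0.05, the threshold the study's methods name, and the adjusted p is printed beside it. An exact two-sided permutation test of 3 mice against 3 cannot go below p = 0.1, so no single gene could pass 0.05 that way. Levels of different probes are not compared, because probes bind with different strength.

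Some features of the arrays move with the values below. The share of marked spots was 17.1% on the array of WT mouse 3 and 15.1% on that of KO mouse 1, against 4.87 to 6.12% on the other 4. WT mice 1 and 2 lay in one row of the slide and the remaining 4 mice in the other. All 12 brown adipocyte markers, Ucp1 included, were well above background on all 6 arrays, while the lymphocyte markers were dim and Ms4a1 was above background on none. Marker averages keep marked spots, and every Ucp1 value was marked. The brown adipocyte list averaged 2.81, 3.17 and 2.91 in WT mice 1 to 3, against 2.74, 2.43 and 2.95 in KO mice 1 to 3. The mean of the 20 skeletal muscle markers, 13 of them above background on all arrays, ran from -3.98 in WT mouse 3 to 3.54 in KO mouse 2, so the tissue pieces carried very unequal amounts of muscle signal. In bulk tissue, fewer cells of a type and less RNA per cell cannot be told apart. No probe measured mature miR-22. The one probe of its host transcript, Mir22hg, read 1.20, 1.69 and 1.22 in WT and 2.02, 2.11 and 2.23 in KO mice (difference 0.75, adjusted p = 0.136), and since its place relative to the deletion is not given in the sources used here, it does not check the genotype.

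One of the 10 genes was called lower in KO BAT and none was called higher. Opa1, the inner membrane fusion protein, was 1.36-fold lower in KO than in WT mice. Of the 12 tested probes, 9 had a difference below 0, against 15083 of all 31238. The median of the 12 was -0.25, against 0.02 over all tested probes. One probe was called lower in KO, as 6.74% of all tested probes were, and 0 were called higher, as 9.7% of all were. No probe passed the adjusted threshold in limma, which 0.109% of all probes passed. The smallest adjusted p among the 12 was 0.265. Among unmarked values, every KO value lay below every WT value in 4 of the 12 probes, against 13.8% of all probes. Every KO value lay above in 0, against 13.8% of all. Counted by gene on the brightest tested probe, 6 of 8 genes lay below 0, against 7779 of all 14711. The median was -0.27, against -0.03 over all genes. One gene was called lower (7.39% of all genes) and 0 higher (9.23% of all). The KO range of unmarked values lay below the WT range in 4 of 8 genes (17.2% of all), and above it in 0 (13.8% of all). Groups with fewer unmarked values separate more easily. Marked were 31.6% of values in the detected probes of these genes, against 11.05% over all detected probes, so these shares are not fully alike. After quantile normalization, the all-probe counts turned from 2104 lower and 3031 higher to 3020 lower and 2008 higher, and the Opa1 call was lost.

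**Figure D1:**
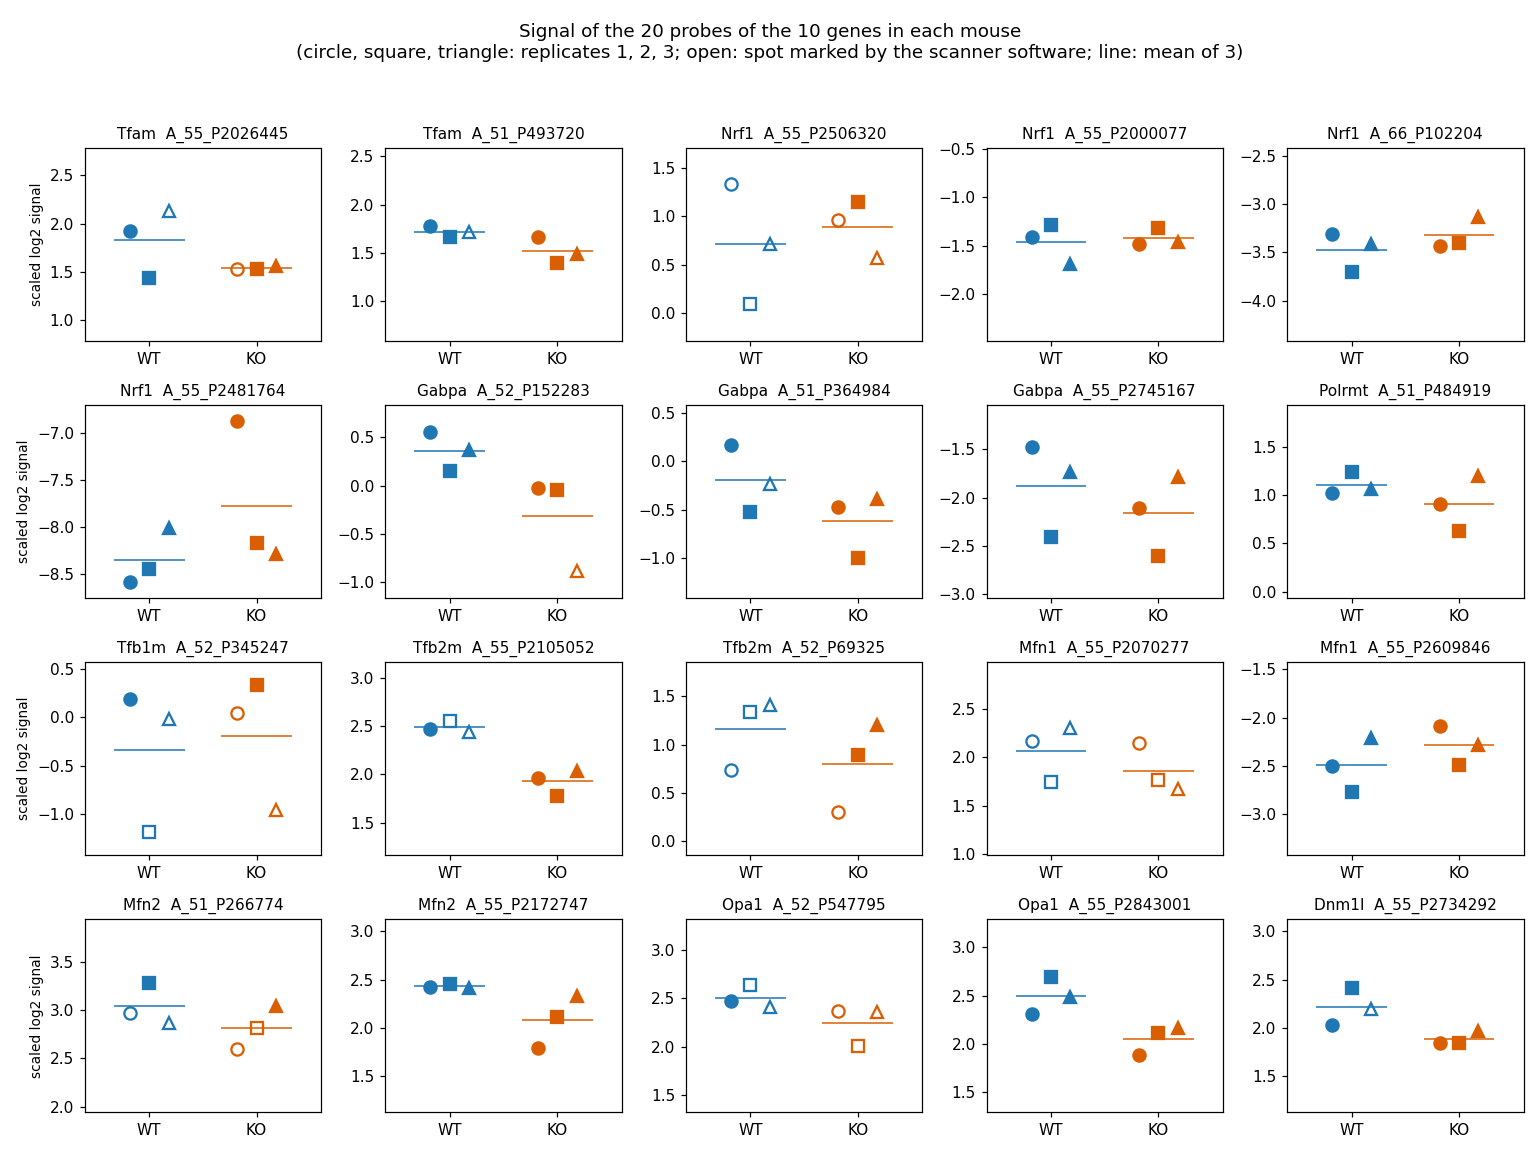
Scaled log2 signal (y axis) of each of the 20 probes in 3 WT (blue) and 3 KO (orange) mice; circles, squares and triangles are replicates 1, 2 and 3, open symbols are spots marked by the scanner software, and the line is the mean of 3. Every axis spans at least 2 log2 units, and the Nrf1 probe near -8 was not above background on any array. The KO symbols lie below all WT symbols for Opa1, for 1 probe each of Mfn2, Gabpa and Tfb2m, and for Dnm1l. The share of all probes that separate in this way with marked spots kept was not counted.

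Sequences were printed where members may meet: NRF-1 and GABP, whose genes are members themselves, work on nuclear genes that include Tfam. The RefSeq promoter table (GRCm38.p6), which spans 250 bases before to 50 bases after each start, held 14 promoters for the 10 genes. The NRF-1 core GCGCNTGCG was searched on both strands, where N is any base. It was found in the promoters of Opa1, Polrmt and Tfb2m, 3 of 10 genes (3 of 14 promoters), against 7.12% of all 27025 genes and 6.31% of all 32851 promoters. The GABP (ETS) core CCGGAAG, also on both strands, was found in promoters of Tfam, Polrmt, Gabpa, Mfn1 and Dnm1l, 5 of 10 genes (5 of 14 promoters), against 9.93% of all genes and 8.86% of all promoters. No member promoter held the ERR core CAAGGTCA, which 1.56% of all promoters held. A match describes the letters in this window, and binding in BAT was not measured.

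The stretches below run 5′ to 3′ along each gene's strand, with the motif in capitals. In Opa1 (chr16:29579234-29579333, plus strand, bases -100 to -1 from the start) the NRF-1 core matched on both strands at neighbouring positions, -59 and -58:
Opa1: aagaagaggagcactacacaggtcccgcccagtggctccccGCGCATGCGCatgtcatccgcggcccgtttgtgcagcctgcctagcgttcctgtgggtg
In Polrmt (chr10:79746573-79746661, minus strand, bases -80 to 9) both cores occurred, GABP at -43 and 2 overlapping NRF-1 matches at -6 and 1:
Polrmt: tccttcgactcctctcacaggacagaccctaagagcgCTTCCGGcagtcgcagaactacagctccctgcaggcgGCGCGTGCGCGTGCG
In Tfam (chr10:71238045-71238144, minus strand, bases -100 to -1) the GABP core stood at -47:
Tfam: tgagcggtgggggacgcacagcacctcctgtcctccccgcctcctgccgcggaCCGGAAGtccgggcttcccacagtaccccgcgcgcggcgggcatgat
In Gabpa itself (chr16:84835004-84835103, plus strand, bases -120 to -21) the GABP core stood at -93:
Gabpa: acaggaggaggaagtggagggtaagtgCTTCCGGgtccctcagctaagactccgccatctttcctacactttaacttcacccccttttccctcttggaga

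The deleted microRNA is encoded on chromosome 11. Its mature forms are shown because the 3p form is the one usually taken as the active strand; the seed, bases 2 to 8, is in capitals. They lie at chr11:75463772-75463793 and chr11:75463734-75463755 on the plus strand:
mmu-miR-22-3p: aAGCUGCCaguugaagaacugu
mmu-miR-22-5p: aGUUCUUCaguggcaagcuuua
Target sites in the members' transcripts were not analysed here.

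Of the DNA-binding factors, Nrf1 encodes nuclear respiratory factor 1, an activator of respiratory chain genes (chr6:30047985-30153458). Its brightest tested probe read -1.41, -1.28 and -1.69 in WT mice 1 to 3 and -1.49, -1.32 and -1.46 in KO mice 1 to 3. The KO values lay inside the WT range, with a difference of 0.04 ± 0.17 (SE; 95% interval -0.36 to 0.43, adjusted p = 0.924, limma). The direction was not stable, since the difference was -0.037 after quantile normalization and -0.12 after normexp background correction. A second tested probe differed by 0.15 (adjusted p = 0.697), again with overlapping groups. Of the other 2 probes, 1 was marked on every array but that of KO mouse 2, and 1 was not well above background on any array.

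Gabpa encodes the DNA-binding subunit of GABP, also called NRF-2 (chr16:84834891-84863783). Its brightest tested probe read 0.56, 0.15 and 0.37 in WT mice and -0.02 and -0.05 in KO mice 1 and 2, the spot of KO mouse 3 being marked and left out of the fit. The groups did not overlap, and the difference was -0.39 ± 0.20 (SE, adjusted p = 0.374), which was not called. The marked spot of KO mouse 3 read -0.88, the lowest of the 6, and with it kept the difference was -0.68 and was called lower (adjusted p = 0.259). Gabpa's other 2 probes differed by -0.44 (adjusted p = 0.493) and -0.29 (adjusted p = 0.662) with overlapping groups, so the 3 probes had the same sign. The brightest probe was called lower in 4 of 20 alternatives. Among them were the authors' processed values (-0.67, adjusted p = 0.253) and, with the marked spot left out, trend and robust eBayes (-0.39, adjusted p = 0.274). With normexp correction the brightest probe's difference was -0.24. Adjusted p-values of Gabpa probes ranged from 0.253 to 0.933 over the alternatives.

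The PGC-1 coactivators Ppargc1a and Ppargc1b, which join these factors on their target genes, could not be tested, because most of their spots were marked. With marked spots kept, the first Ppargc1a probe read 3.76, 3.39 and 3.52 in WT and 2.95, 2.87 and 3.10 in KO mice, a difference of -0.59 ± 0.16 (SE, adjusted p = 0.153). The second read 2.76, 3.50 and 3.05 in WT and 2.38, 2.17 and 2.72 in KO mice, a difference of -0.68 ± 0.24 (SE, adjusted p = 0.223). All KO values of both probes lay below all WT values, and both probes were called lower in that setting. Over the alternatives that gave a value, adjusted p-values ran from 0.153 to 0.349 for Ppargc1a and from 0.386 to 0.822 for Ppargc1b. The probes of Ppargc1b differed by -0.95 (adjusted p = 0.386) and -0.21 (adjusted p = 0.591), with overlapping groups. Ppargc1b read 0.68 in KO mouse 1 on the first of them, against 2.42 and 2.86 in the other KO mice.

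Tfam encodes the protein that packs mitochondrial DNA and starts its transcription (chr10:71225468-71238328). Its brightest tested probe read 1.92 and 1.44 in WT mice 1 and 2 and 1.53 and 1.56 in KO mice 2 and 3, with WT mouse 3 and KO mouse 1 left out as marked. The KO values lay between the WT values, with a difference of -0.13 ± 0.25 (SE; 95% interval -0.76 to 0.50, adjusted p = 0.811). With the marked spots kept, at 2.13 in WT mouse 3 and 1.53 in KO mouse 1, it was -0.29 (adjusted p = 0.480, the range over alternatives and Tfam probes being 0.480 to 0.988), and with normexp correction it was -0.014. The second probe read 1.78 and 1.66 in WT mice 1 and 2 and 1.67, 1.40 and 1.49 in KO mice. KO mouse 1 lay above WT mouse 2 there, and the difference was -0.20 ± 0.18 (SE, adjusted p = 0.606).

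Polrmt encodes the RNA polymerase of mitochondria (chr10:79736125-79746604). Its single probe read 1.02, 1.24 and 1.06 in WT and 0.90, 0.62 and 1.20 in KO mice. KO mice 1 and 2 lay below every WT mouse and KO mouse 3 above WT mice 1 and 3, with a difference of -0.20 ± 0.19 (SE, adjusted p = 0.628). Without KO mouse 2 it was -0.056 and without KO mouse 3 it was -0.34, while without WT mouse 2 it was -0.13.

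Tfb2m encodes the factor that opens mitochondrial promoters with the polymerase, and Tfb1m a methyltransferase of the small mitochondrial ribosomal RNA. Neither could be tested. The brighter Tfb2m probe had 1 unmarked WT value, and with marked spots kept it read 2.47, 2.55 and 2.44 in WT and 1.96, 1.78 and 2.04 in KO mice. The groups lay apart by more than the spread within either, with a difference of -0.56 ± 0.15 (SE, adjusted p = 0.142), called lower in that setting. Adjusted p-values of Tfb2m probes ran from 0.142 to 0.638 over the alternatives that gave one. The 3 KO spots and the spot of WT mouse 1 were unmarked, so the values of WT mice 2 and 3 rest on marked spots. Tfb2m's other probe, all of whose WT spots were marked, differed by -0.36 (adjusted p = 0.532), with overlapping groups. The Tfb1m probe ran from -1.18 to 0.19 in WT and from -0.96 to 0.33 in KO mice, and the difference of 0.14 ± 0.45 (SE, adjusted p = 0.888) was smaller than the spread within the groups.

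Among the fusion genes, Mfn1 and Mfn2 encode the mitofusins, GTPases that join outer membranes. The brightest tested Mfn2 probe (gene at chr4:147873586-147904909) read 2.42, 2.46 and 2.41 in WT and 1.79, 2.11 and 2.33 in KO mice. The WT mice lay within a narrow band and every KO mouse below it, with KO mouse 3 close to the WT values; the difference was -0.35 ± 0.18 (SE; 95% interval -0.77 to 0.07, adjusted p = 0.377), which was not called. Without KO mouse 3 it was -0.48 and was called lower, and without KO mouse 1 it was -0.21 and was not. It was -0.22 after quantile normalization and -0.21 with the authors' values. Adjusted p-values of Mfn2 probes ran from 0.289 to 0.932 over the alternatives. The brighter Mfn2 probe could not be tested, and with marked spots kept it differed by -0.22 (adjusted p = 0.556) with overlapping groups.

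The tested Mfn1 probe read -2.50, -2.77 and -2.21 in WT and -2.08, -2.49 and -2.28 in KO mice, a difference of 0.21 ± 0.20 (SE, adjusted p = 0.630). The brighter Mfn1 probe was marked on all 6 arrays and went the other way, reading 2.17, 1.74 and 2.30 in WT and 2.15, 1.77 and 1.68 in KO mice (difference -0.21, adjusted p = 0.631). The groups overlapped on both probes, and the Mfn1 probes had opposite signs, so no direction is given for Mfn1. The first probe's difference was also -0.025 after normexp correction and -0.076 within the slide row that held both groups.

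Opa1 encodes the dynamin-like GTPase that fuses inner membranes and keeps the cristae in shape (chr16:29579281-29663127). Its tested probe read 2.31, 2.70 and 2.48 in WT and 1.89, 2.12 and 2.16 in KO mice. Every KO mouse lay below every WT mouse, the closest pair being KO mouse 3 and WT mouse 1. The group means were 2.50 ± 0.19 and 2.06 ± 0.15 (SD), the difference was -0.44 ± 0.17 (SE; 95% interval -0.85 to -0.04), and it was called lower with an adjusted p = 0.265 (limma, n = 3 per group). Adjusted p-values of Opa1 probes ranged from 0.175 to 0.749 over the alternatives. The brighter Opa1 probe had 1 unmarked value. With marked spots kept, it read 2.47, 2.64 and 2.42 in WT and 2.37, 2.01 and 2.36 in KO mice, again without overlap and with a smaller difference of -0.27 that was not called (adjusted p = 0.435).

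Opa1 was below WT in all 22 alternatives, but the call held in 9 of them and the size moved. Alternatives that changed only the test or the set of tested probes left its difference at -0.44. The sign could not turn in those. The difference shrank to -0.18 with normexp background correction, to -0.29 with the authors' processed values and to -0.30 with quantile normalization, and none of these was called. The size was unchanged but the call was lost with no filter on dim probes and with SAM. With single arrays left out, the call was kept without WT mouse 1 (difference -0.53) and without KO mouse 3 (-0.49). It was lost without WT mouse 2 (-0.34), WT mouse 3 (-0.45), KO mouse 1 (-0.36) or KO mouse 2 (-0.47). Within the slide row that held both groups the difference was -0.43 and was not called, with a single WT mouse there. WT mouse 3, whose muscle signal was far below that of the other mice, had an Opa1 value between those of the other WT mice. With the muscle signal as a covariate the difference was -0.46 and was not called. The brown adipocyte list was lowest in KO mice 2 and 1, and its part in the Opa1 difference was not tested.

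Dnm1l encodes the dynamin-related GTPase that constricts and divides mitochondria (chr16:16312228-16359038). Its single probe read 2.03 and 2.41 in WT mice 1 and 2 and 1.84, 1.85 and 1.96 in KO mice, WT mouse 3 being marked and left out. The groups did not overlap, and the difference was -0.34 ± 0.19 (SE; 95% interval -0.81 to 0.13, adjusted p = 0.432), which was not called. The marked spot of WT mouse 3 read 2.19, and with it kept the difference was -0.33 (adjusted p = 0.328, the range over the alternatives being 0.328 to 0.609). After quantile normalization, after normexp correction and with the authors' values it was -0.20. The fission gene Dnm1l and the fusion genes Opa1 and Mfn2 thus had differences of the same sign. The probes of the other fusion gene, Mfn1, had opposite signs.

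**Figure D2:**
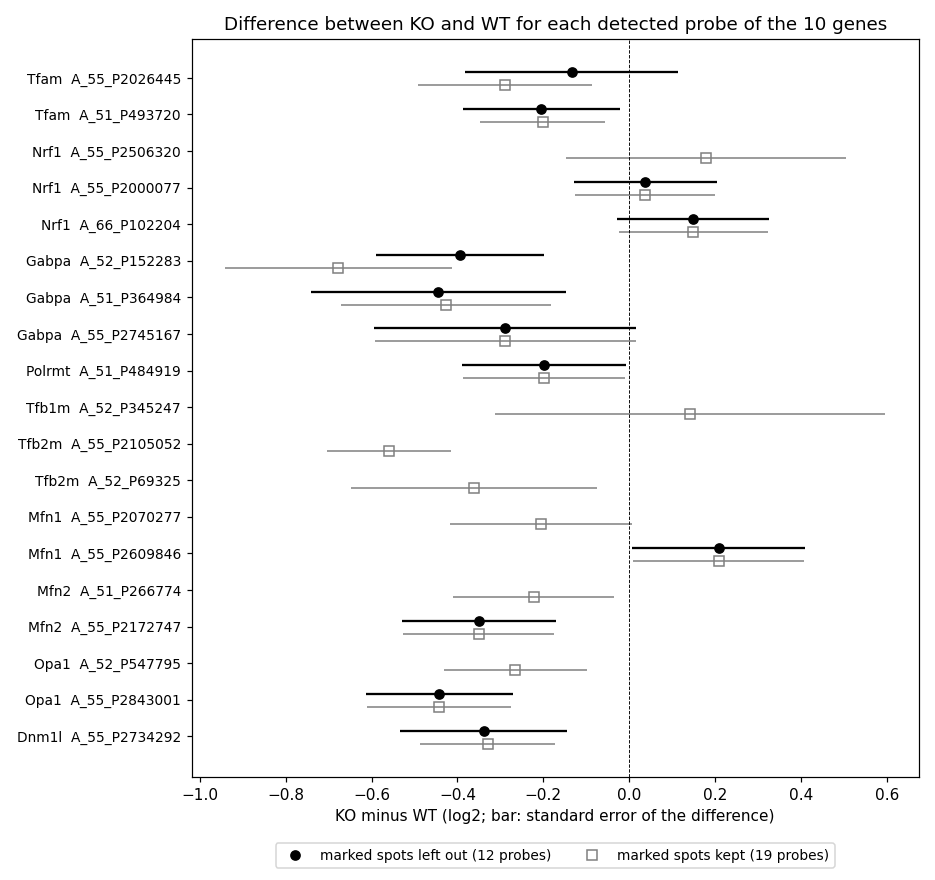
KO minus WT on the log2 scale (x axis) for the 19 detected probes (y axis), with the standard error of each difference; black points leave marked spots out and grey squares keep them. Opa1 (-0.44) is the tested gene farthest from 0 relative to its error, and the brighter Tfb2m probe (-0.56) has a value only with marked spots kept.

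The size of the differences has to be read beside a trend over the whole array. When all tested probes were put in 4 equal groups by their mean signal, the median difference was 0.14 in the dimmest, 0.13 in the second, 0.04 in the third and -0.17 in the brightest. Of the 12 tested probes of these genes, 7 lay in the brightest group, 3 in the third and 2 in the second. Their differences below 0 thus lay on the side to which bright probes shifted as a whole. Opa1, Mfn2, Dnm1l, Polrmt, the 3 Gabpa probes and 1 of the 2 Tfam probes lay below the median of their own group. That median was above 0 in the third group, where some of the Gabpa probes lay. Lower calls made up 8.92% and higher calls 2.68% of the brightest group. Marked spots were also a matter of brightness: they made up 0.127% of values in the dimmest detected probes and 29.6% in the brightest. Among the 19 detected probes of these genes 31.6% of values were marked, against 11.05% over all detected probes. The part of the brightness trend in the members' differences was not tested.

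**Figure D3:**
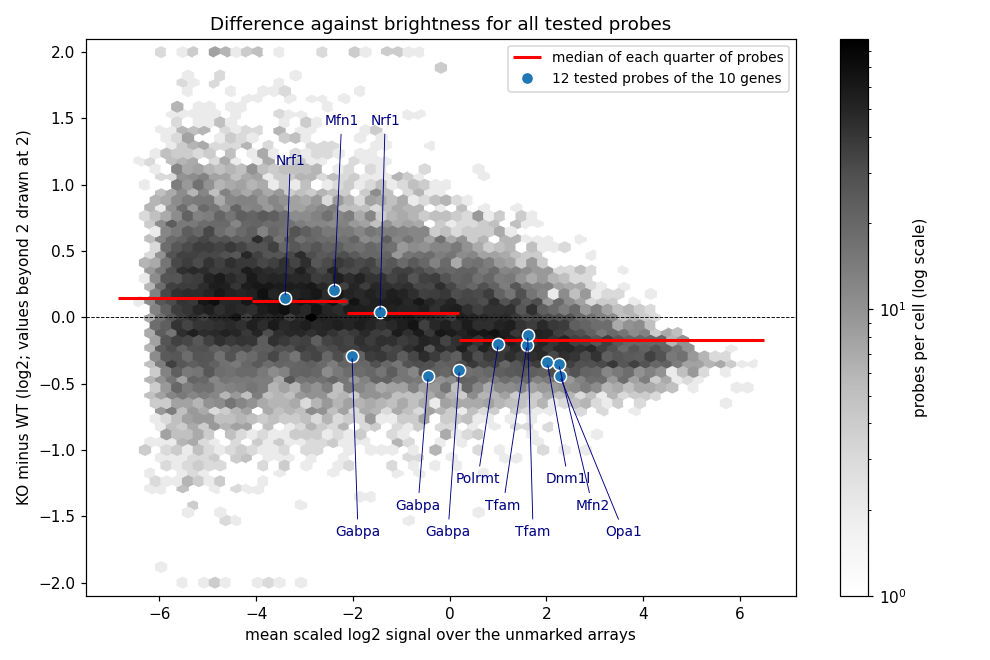
KO minus WT (y axis, log2) against the mean scaled log2 signal (x axis) for all 31238 tested probes (grey cells, darker for more probes on a log scale), with the 12 tested probes of the 10 genes in blue and the median of each of the 4 groups of probes in red. The median falls from 0.14 in the dimmest group to -0.17 in the brightest, where 7 of the 12 probes lie.

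Other genes of the same pathway were described from lists of 117 further genes, of which 102 had a probe and 82 could be tested. Of the 82, 59 lay below 0, against 7779 of all 14711 genes. The median of the 82 was -0.20, against -0.03 over all genes. In the brightest of the 4 groups of probes the median was -0.17, and the brightness of the 82 genes was not taken into account. Of the 82, 8 were called lower and 3 higher, against 7.39% and 9.23% of all genes, and 0 passed the adjusted threshold, which Elac2 alone passed in 2 alternatives (a filter requiring signal on all arrays, and trend and robust eBayes). Unmarked KO values lay below all unmarked WT values in 28 of the 82 genes, against 17.2% of all genes. They lay above in 6, against 13.8% of all. The number of unmarked values was not matched between the 82 genes and all genes. None of the 15 listed genes of the mitochondrial genome itself had a matched probe, so the transcripts that Tfam, Polrmt and Tfb2m produce were not measured here.

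Among the coactivators and partners, 2 of 8 tested genes were lower and 0 higher, against 7.39% and 9.23% of all genes. Esrra, the orphan receptor that works with PGC-1, differed by -0.53 (adjusted p = 0.292) with WT mouse 3 left out as marked, and was called in 9 of 18 alternatives. Gabpb2, a partner subunit of Gabpa, read -1.03, -0.86 and -0.83 in WT and -1.39, -1.36 and -1.32 in KO mice (difference -0.45, adjusted p = 0.199), and was called in 17 of 22 alternatives. The mean of the Gabpb2 probes gave -0.27 and was not called. Of the genes that maintain mitochondrial DNA, 0 of 15 passed in either direction, and their median was -0.18, against -0.03 over all genes.

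In the control of mitochondrial transcripts, 2 of 16 tested genes were lower and 1 higher, against 7.39% and 9.23% of all genes. Elac2, which trims the ends of transfer RNAs, had the smallest p of all 82. It read 0.14, 0.14 and 0.04 in WT and -0.65, -0.83 and -0.66 in KO mice, a difference of -0.82 ± 0.15 (SE, adjusted p = 0.0899). The WT and KO mice lay far apart for Elac2, and it was called lower in all 22 alternatives. Nsun4, an RNA methyltransferase of the mitochondrial ribosome, differed by -0.55 (adjusted p = 0.153) and was called in 20 of 22. Mterf1b, a termination factor, differed by 0.36 (adjusted p = 0.297) and was called in 6 of 22. It has a near-identical copy, Mterf1a, and the probe signal may come from both.

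Of the fission genes 1 of 12 was lower, Slc25a46, an outer membrane protein (difference -0.49, adjusted p = 0.205, called in 18 of 22 alternatives). The mean of the Slc25a46 probes gave -0.45 and was not called. Of the fusion genes and their regulators 1 of 9 was lower, Stoml2, an inner membrane scaffold (difference -0.54, adjusted p = 0.154, called in 20 of 22). None was higher in these lists. Over all genes 7.39% were lower and 9.23% higher, with a median of -0.03. Of the proteases and prohibitins that process Opa1 0 of 6 passed, with a median of -0.22, and of the cristae genes 0 of 3, with a median of -0.25.

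Of the mitophagy genes 1 of 9 was lower, against 7.39% of all genes. It was the receptor Fkbp8 (difference -0.41, adjusted p = 0.260, called in 12 of 22 alternatives). Genes that move mitochondria along the cytoskeleton differed both ways. Rhot2, a GTPase that anchors motors, differed by -0.40 (adjusted p = 0.272), while Trak1, a motor adaptor, differed by 0.56 (adjusted p = 0.180) and Armcx3, an outer membrane protein of the same machinery, by 0.45 (adjusted p = 0.264). Rhot2 was called in 8 of 22 alternatives, Trak1 in 15 of 21 and Armcx3 in 13 of 22. The mean of a gene's probes gave -0.19 for Rhot2 and 0.13 for Armcx3, and normexp correction gave 0.087 for Trak1, none of them called. The Trak1 probe was well above background on 2 of 3 arrays in each group. Its values were dim, from -5.71 to -5.44 in WT and from -5.21 to -4.84 in KO mice.

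**Figure D4:**
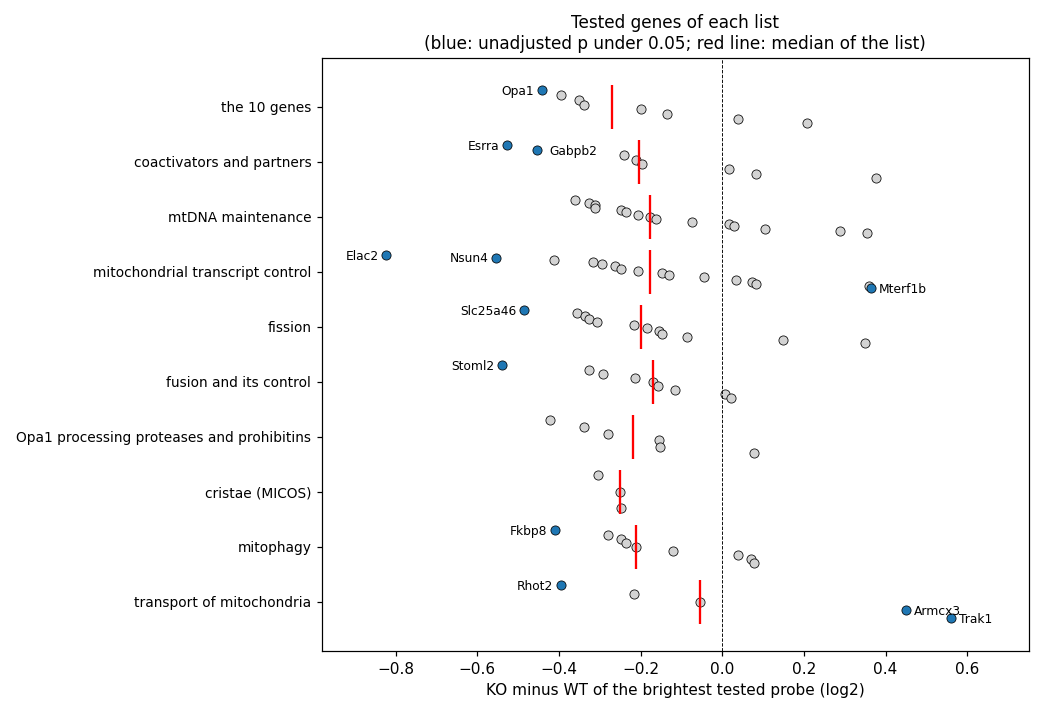
KO minus WT on the log2 scale (x axis) of each tested gene, by list (y axis); blue points were called lower or higher, and the red line is the median of the list. Medians of the lists lie between -0.27 for the 10 genes and -0.05 for transport of mitochondria, and 3 of the 82 list genes were higher in KO.

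The pattern of Opa1 over the 6 arrays was compared with those of 59 members and list genes with 6 unmarked values. The 3 genes most like it by Pearson's r were Rhot2 (0.99), the fission receptor Mff (0.98) and Slc25a46 (0.97). The 3 least like it were Armcx3 (-0.90), Trak1 (-0.71) and Mterf1a (-0.69). Mfn2 stood at 0.86 and Mfn1 at -0.68. These correlations hold the difference between the groups and share the 6 arrays and their scaling, so they are descriptions.

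Genes with an NRF-1 or GABP core were also counted over the array, as a background for the promoters shown above. Of the tested genes 11647 had a promoter in the table, with a median difference of -0.04. The 1461 genes with the NRF-1 core had a median of -0.12, with 7.46% lower and 5.95% higher, and the 1909 genes with the GABP core had a median of -0.12, with 7.49% lower and 5.40% higher. Over all genes with a promoter the shares were 7.45% lower and 9.17% higher. The 168 genes with the ERR core, which no member holds, had a median of -0.01, with 7.14% lower and 5.36% higher. The share called higher was thus below that of all genes for all 3 cores alike, and these shares were not tested against each other. Over all probes that share also differed with brightness, at 2.68% in the brightest group, and the brightness of genes with a core was not taken into account.

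**Figure D5:**
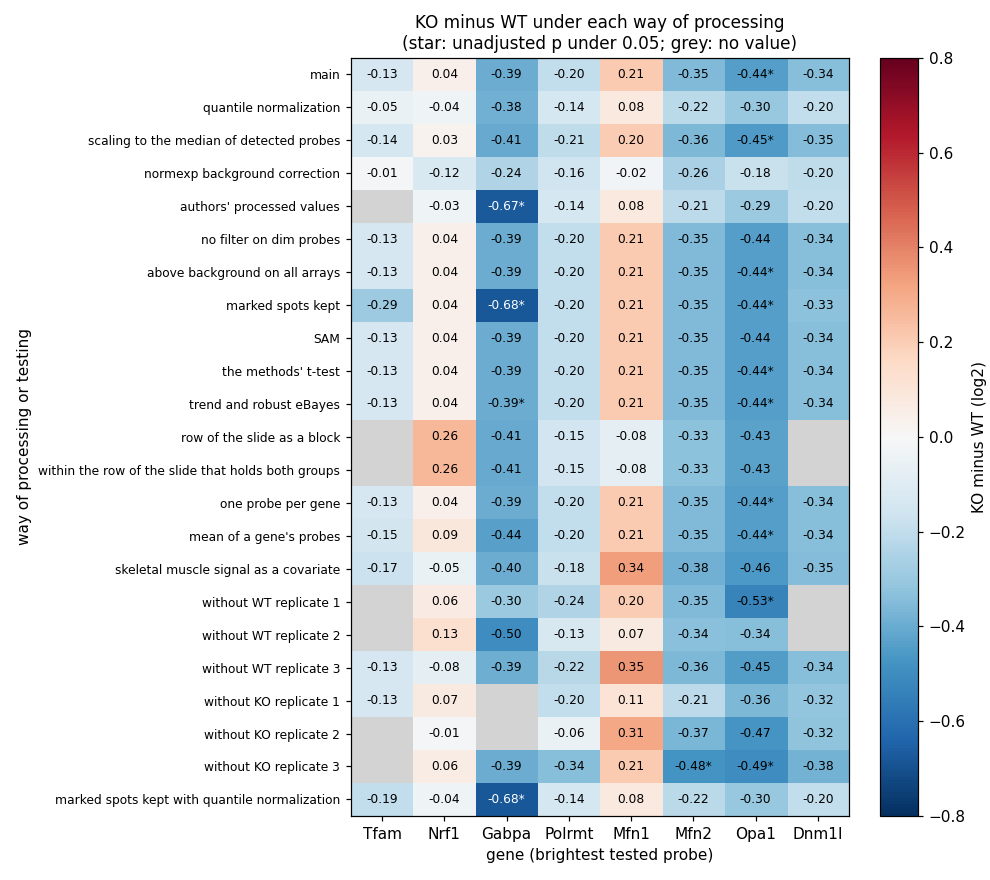
KO minus WT on the log2 scale (cell colour and number) of the brightest tested probe of 8 genes (columns) under each way of processing or testing (rows); a star marks an unadjusted p under 0.05, and grey cells have no value. Gabpa, Polrmt, Mfn2, Opa1, Dnm1l and Tfam are below 0 in every cell with a value, while Nrf1 and Mfn1 change sign. Rows that change only the test or the set of tested probes repeat the reported difference.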

How the data were processed

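BAT RNA of 3 WT and 3 KO mice was measured on 1-colour Agilent arrays. The authors deposited scanner files whose intensity columns hold background-subtracted processed signals (Feature Extraction 11.5.1.1 in the file headers, 10.7 in the submitters' processing notes), and a table of processed log2 values, used as an alternative. Groups came from the genotype labels. Each intensity was divided by its array's 75th percentile and taken to log2, and marked spots were left out. Marker means, the muscle covariate and the alternatives named so kept them. Of 56605 probes, 33767 (59.7%) matched a RefSeq gene. A probe was tested when well above background on at least 3 of 6 arrays with at least 2 unmarked values per group (31238 probes, 14711 genes), with limma 3.58.1 in R 4.3.3 and Benjamini-Hochberg adjustment over all probes; the methods name SAM, run here as an alternative. The brightest tested probe stood for a gene. Named were all members, list genes under an unadjusted p of 0.05 (at most 3 per direction and list), Ppargc1a and Ppargc1b, and the 3 list genes most and least like the member with the smallest p. Marker lists for macrophage, endothelium, erythroid cells and all adipocytes were also summed: their means ran from 1.39 to 1.85, 1.08 to 1.35, 0.11 to 0.55 and 3.93 to 4.51, and lymphocyte markers from -5.21 to -4.30. The members and lists were chosen with earlier results of these data known. The fits were tested on simulated data. The study describes the samples of a group as biological replicates, while the labels do not state separate animals. Alternatives covered scaling, background, filters, marked spots, tests, slide rows, probe summaries, muscle signal and each array left out.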

Additional observations from a re-analysis of the deposited data

How the results depend on the processing

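Taken by the brightest tested probe, or the mean of a gene's probes where so named, the members' differences kept their sign in all but 10 of 163 combinations of gene and alternative. Alternatives that changed only the test or the set of tested probes return the same difference, so the sign could not turn in them. Nrf1 turned to -0.037 with quantile normalization (also with marked spots kept, an alternative chosen after seeing the data), -0.12 with normexp correction, -0.033 with the authors' processed values, -0.052 with the muscle covariate, -0.076 without WT mouse 3 and -0.014 without KO mouse 2, its range with each array left out being -0.076 to 0.13. Mfn1 turned to -0.025 with normexp correction and to -0.076 with the slide row as a block or within it. Outside this count, the second Tfam probe turned to 0.015 with normexp correction. The second tested Nrf1 probe turned to -0.029 with quantile normalization, also with marked spots kept, and to -0.026 with the authors' processed values. The count of member probes lower in KO was 1 of 12 in the reported setting (6.74% of all probes, with the share in each setting in brackets). It was 0 with quantile normalization (9.67%), normexp correction (8.21%), no filter on dim probes (2.99%) and SAM (5.15%). With the muscle covariate (5.95%) and the slide row as a block (2.06%) it was also 0. It was 2 with trend and robust eBayes (8.14%), 3 of 19 with marked spots kept (8.07%) and 2 of 19 with quantile normalization added (9.66%). It ran from 0 to 2 with each array left out (4.55 to 6.99%). No alternative gave a probe higher in KO or past the adjusted threshold. Opa1 kept its sign in all 22 alternatives and was called lower in 9.

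Of the 82 other list genes, 8 were lower and 3 higher in the reported setting, against 6.74% and 9.7% of all probes. Shares in brackets below are those of all probes in the same setting. Lower were 15 of 100 with marked spots kept (8.07%), 5 of 82 with SAM (5.15%) and 12 of 82 with Student's t-test (7.59%). With the slide row as a block, 1 of 68 was lower (2.06%). With each array left out the count ran from 3 of 82 without KO mouse 1 (5.47%) to 14 of 70 without KO mouse 3 (6.99%). Higher was 1 of 82 with quantile normalization (6.43%), 1 of 72 with the authors' values (7.1%) and 1 of 85 with no filter (7.73%). It was 1 of 82 with SAM (8.36%), 4 of 82 with Student's t-test (7.66%) and 1 of 68 with the row as a block (6.17%). With each array left out, 1 to 2 were higher (7.93 to 9.44%). Fewer probes entered both slide-row fits, and fewer mice entered the fit within the row. The cause of these changes, those with the slide row included, was not tested. Replicate numbers follow the order of the samples and pair nothing.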
